A study of Vitis vinifera with 6 samples.

Results

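The genes described here are 10 neighbours on chromosome 16 that are designated ethylene response factor (ERF) genes in tandem. They are VIT_16s0013g00900, VIT_16s0013g00950, VIT_16s0013g00970, VIT_16s0013g00980, VIT_16s0013g00990, VIT_16s0013g01000, VIT_16s0013g01050, VIT_16s0013g01070, VIT_16s0013g01090 and VIT_16s0013g01120, out of 29971 genes in the expression table. Their chromosome and their order are read from the identifiers, which number the genes along each block of the genome. They were chosen by their measured FPKM (mapped fragments scaled to the length of the transcript and to the size of the library), which was lower in 4X than in 2X, so the decrease itself is given as a description with no test. The ERF designation could not be checked, since the table and the reference annotation used here pair none of these identifiers with a description. RNA was sequenced from terminal buds (tip buds) of the colchicine-induced autotetraploid (4X) and of the diploid grapevine ‘Jingyanjing’ (2X), 3 libraries of each. Both ploidies are *Vitis vinifera* vines raised through tissue culture and grown in the same vineyard under the same care, and by the study's methods each library was a pool of buds from several vines, taken a week before the 4X terminal buds dropped. Every 4X library is of the autotetraploid of that same cultivar, and other tetraploid grapevines were not analysed here.

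ERF proteins are plant transcription factors with an AP2/ERF domain, and many of them bind a GCC box in the promoters of the genes they control. In the ethylene pathway the hormone is made from its precursor by ACC oxidases, its receptors stop repressing a signal to the nucleus, and stabilised transcription factors there switch on a first layer of ERF genes, whose products then act on defence, growth and abscission genes. Many ERF genes also answer quickly to wounding, cold, drought or pathogens without added ethylene, and copies of a family that arose in tandem often lie side by side, as these identifiers do.

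Between 17816 and 18058 genes reached 1 FPKM in a library. Relative to 2X replicate 1, the depth implied by the steps between low FPKM values was 1.06, 1.1 and 1.05 in 4X replicates 1, 2 and 3, and it was 1.03 and 0.975 in 2X replicates 2 and 3. The table holds no counts, and the number of reads behind a single value is unknown. KNAP2 (VIT_18s0001g08380), a homeobox gene of the KNOX kind that marks shoot meristems, was present in every library, at 43.2 to 56.8 FPKM in 4X and 63.6 to 87.3 FPKM in 2X. Its 4X libraries all lay below its 2X libraries (log2 fold change of 4X over 2X -0.58, SE 0.15), as in 8.85% of all genes tested. The study, too, lists this gene as decreased in 4X. 4X replicate 1 stood apart from the other 4X libraries. Over all 18119 genes tested, the root mean square difference of log2(FPKM + 1) between 4X replicate 1 and the other 4X libraries was 0.59 and 0.53, while it was 0.46 to 0.50 between 4X replicate 1 and the 2X libraries. Between 4X replicates 2 and 3 it was 0.43. The folds and calls of the cluster are therefore also given without that library.

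Every cluster gene had a lower FPKM in each 4X library than in any 2X library. Summed over the 10 genes, expression was 93.4, 24.2 and 40.7 FPKM in 4X replicates 1, 2 and 3, against 292, 293 and 273 FPKM in 2X replicates 1, 2 and 3. The mean of this sum was 52.8 ± 36.1 FPKM in 4X, against 286 ± 11.7 FPKM in 2X (SD, n = 3), and was 5.42-fold lower in 4X. Without 4X replicate 1 it was 8.82-fold lower. The 2X libraries thus lay close together, whereas 4X replicate 1 held 3.86 times the sum of 4X replicate 2 and 2.30 times that of 4X replicate 3. In RNA from whole buds, fewer cells that express these genes and less RNA per cell cannot be told apart.

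VIT_16s0013g00950 had the highest FPKM of the cluster in each 2X library. Its expression was 20.2, 2.86 and 6.04 FPKM in 4X replicates 1, 2 and 3, against 63.5, 62.3 and 67.6 FPKM in the 2X libraries. On the scale of log2(FPKM + 1), the log2 fold change of 4X over 2X was -2.98 (SE 0.56), the lowest of the 10. The 2X values of this gene had a coefficient of variation of 4.34%, and its 4X values had one of 95.3%.

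VIT_16s0013g01120, at the other end of the run, was the most expressed of the 10 genes by its 4X mean. It had 15.1, 7.71 and 11.2 FPKM in 4X and 44.6, 54.2 and 39.2 FPKM in 2X, and its mean was 4.05-fold lower in 4X. This was the smallest ratio in the cluster (log2 fold change -1.96, SE 0.23). VIT_16s0013g00900, which precedes the others by identifier, had 7.79, 2.65 and 7.24 FPKM in 4X and 29.4, 27.4 and 20.4 FPKM in 2X, a 4.37-fold lower mean (log2 fold change -2.04, SE 0.35). It was the cluster gene in which 4X replicate 3 lay nearest to 4X replicate 1.

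VIT_16s0013g00980 showed the largest ratio. It had 2.48, 1.44 and 1.49 FPKM in 4X, against 11.4, 18.7 and 21.2 FPKM in 2X, so that its mean was 9.52-fold lower in 4X (log2 fold change -2.67, SE 0.25). The coefficient of variation was 32.5% among its 4X values and 29.7% among its 2X values, and no other cluster gene varied as much within 2X. VIT_16s0013g01070 also had little spread within 4X, with 3.03, 1.57 and 1.92 FPKM in 4X and 14.6, 15.8 and 11.7 FPKM in 2X (log2 fold change -2.26, SE 0.20).

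VIT_16s0013g00970, VIT_16s0013g00990 and VIT_16s0013g01000 lie inside the run, with VIT_16s0013g00980 between the first of them and the others. VIT_16s0013g00990 had 14.9, 3.09 and 3.88 FPKM in 4X and 45.1, 38.7 and 36.4 FPKM in 2X (log2 fold change -2.59, SE 0.48). VIT_16s0013g01000 had 7.52, 1.80 and 3.42 FPKM in 4X and 32.0, 24.9 and 26.3 FPKM in 2X (log2 fold change -2.60, SE 0.38). VIT_16s0013g00970 had 6.86, 1.31 and 1.93 FPKM in 4X and 18.3, 16.7 and 15.5 FPKM in 2X (log2 fold change -2.24, SE 0.43). In all of these genes 4X replicate 1 lay between the other 4X libraries and 2X and overlapped neither.

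VIT_16s0013g01050 had 14.002, 1.68 and 3.40 FPKM in 4X, against 29.7, 31.4 and 31.3 FPKM in 2X (log2 fold change -2.50, SE 0.57). Its 2X libraries had the smallest coefficient of variation of the cluster, 3.09%, and its 4X libraries had 105%. VIT_16s0013g01090 was the least expressed copy in every library. It had 1.53, 0.114 and 0.116 FPKM in 4X, against 3.73, 3.28 and 2.91 FPKM in 2X, a 5.64-fold lower mean. Its log2 fold change of -1.55 (SE 0.34) is the smallest in size, since the added 1 FPKM compresses the change of a gene at this level. With a pseudocount of 0.1 in place of 1, it was -3.01.

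**Figure D1:**
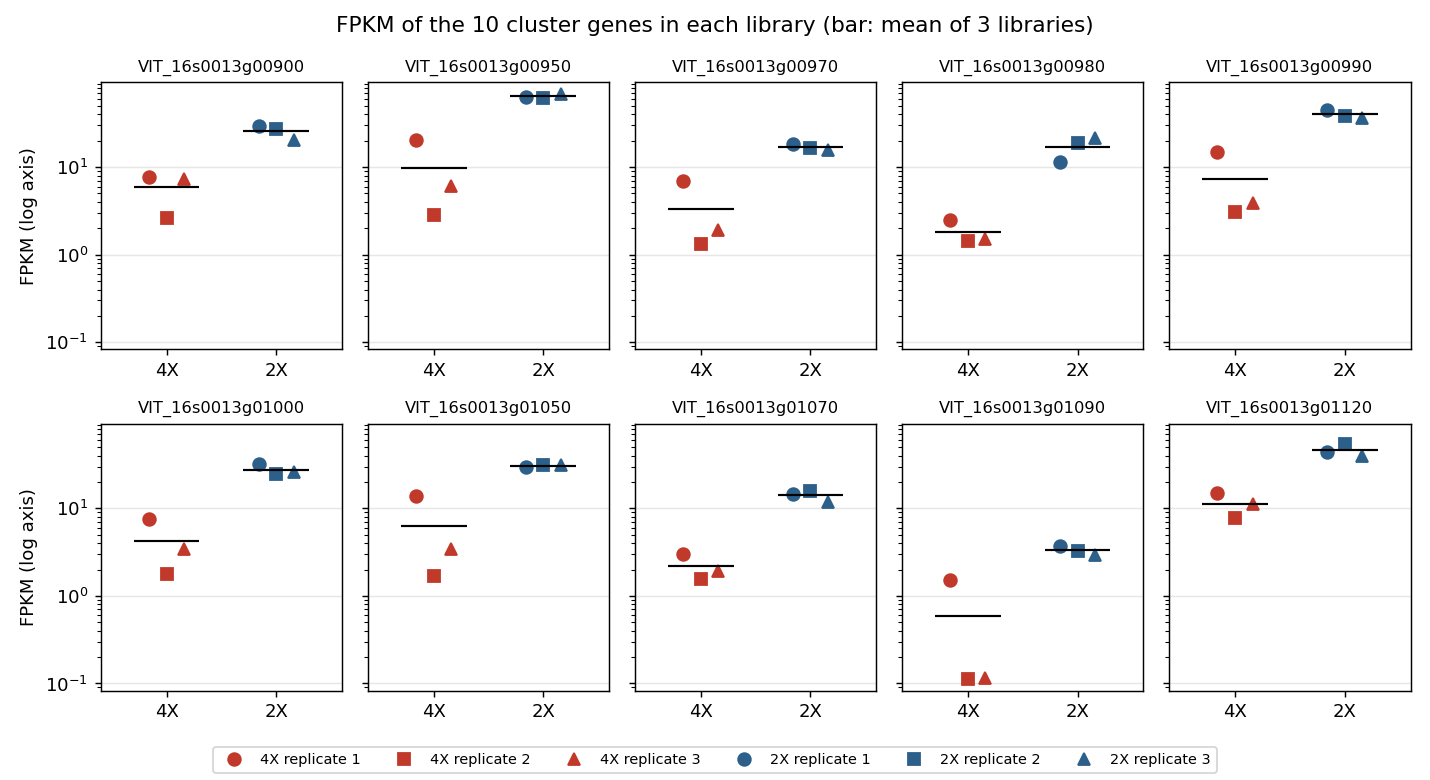
FPKM on a log axis of each of the 10 cluster genes in 4X (left, red) and 2X (right, blue), with 1 point for each library shaped by replicate number and a bar for the mean of 3 libraries. In every panel all 4X points lie below all 2X points, and 4X replicate 1 is the highest of the 4X points, for example 20.2 against 2.86 and 6.04 FPKM in VIT_16s0013g00950.

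The log2 fold changes of the 10 genes ranged from -2.98 to -1.55 with a median of -2.38, while the median over all 18119 genes tested was 0.01. Genes were tested where their mean over the 6 libraries was at least 1 FPKM, and all 10 passed, but VIT_16s0013g01090 passed only through its level in 2X, since its 4X mean was 0.586 FPKM. Of all genes tested, 8.85% had every 4X library below every 2X library, as the 10 cluster genes had. Ordered by log2 fold change, 7 of the 10 were among the 20 lowest of the genes tested and all 10 among the 100 lowest. In limma, a linear model fitted to all genes tested, VIT_16s0013g00980 and VIT_16s0013g01070 were called lower at an adjusted p under 0.05, where 0.0276% of all genes tested were called lower. Their 4X values had coefficients of variation of 32.5% and 35.0%, where the median of the 10 genes was 79.9%. VIT_16s0013g01120 also had 32.5% but was not called (adjusted p = 0.0573 from limma). Without 4X replicate 1 all 10 were called lower, where 3.14% of all genes were, and the median log2 fold change was -2.81. The mean of VIT_16s0013g00950 was then 14.5-fold lower in 4X (log2 fold change -3.65) and that of VIT_16s0013g01050 12.1-fold lower (log2 fold change -3.21). VIT_16s0013g00970, VIT_16s0013g00980, VIT_16s0013g00990 and VIT_16s0013g01000 were 10.4-fold to 11.7-fold lower, and VIT_16s0013g01070 was 8.04-fold lower. The folds moved least in VIT_16s0013g00900, to 5.20, and VIT_16s0013g01120, to 4.85. VIT_16s0013g01090 was 28.8-fold lower without that library, a fold that rests on 4X values near 0. Leaving out any other library instead left 0 of the 10 called in limma, while all 10 had an unadjusted p under 0.05 in each of these fits, as 8.31% to 13.2% of all genes tested had. The members were chosen on this contrast, so these counts carry no support of their own. How reads matching more than 1 copy were assigned is not stated. Tandem copies that are near-identical could share reads, so the values of single copies are less certain than their sum.

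4X replicate 1 had the highest FPKM of the 4X libraries in all 10 genes and 4X replicate 2 the lowest, with 4X replicate 3 between them. This order was found in 22.4% of all genes tested. For VIT_16s0013g01090 the order of 4X replicates 2 and 3 rests on 0.114 and 0.116 FPKM, which are near 0 and hardly differ. As a share of the 2X mean, the FPKM of the 10 genes had a median of 32.1% in 4X replicate 1 (range, 14.4% to 46.2%). The median was 7.76% in 4X replicate 2 (3.45% to 16.8%) and 11.2% in 4X replicate 3 (3.50% to 28.1%). On the scale of log2(FPKM + 1), the median distance to the mean of 2X was -1.56 in 4X replicate 1, -2.90 in 4X replicate 2 and -2.65 in 4X replicate 3. 4X replicate 1 therefore showed the decrease in every copy, but less of it than the other 4X libraries.

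**Figure D2:**
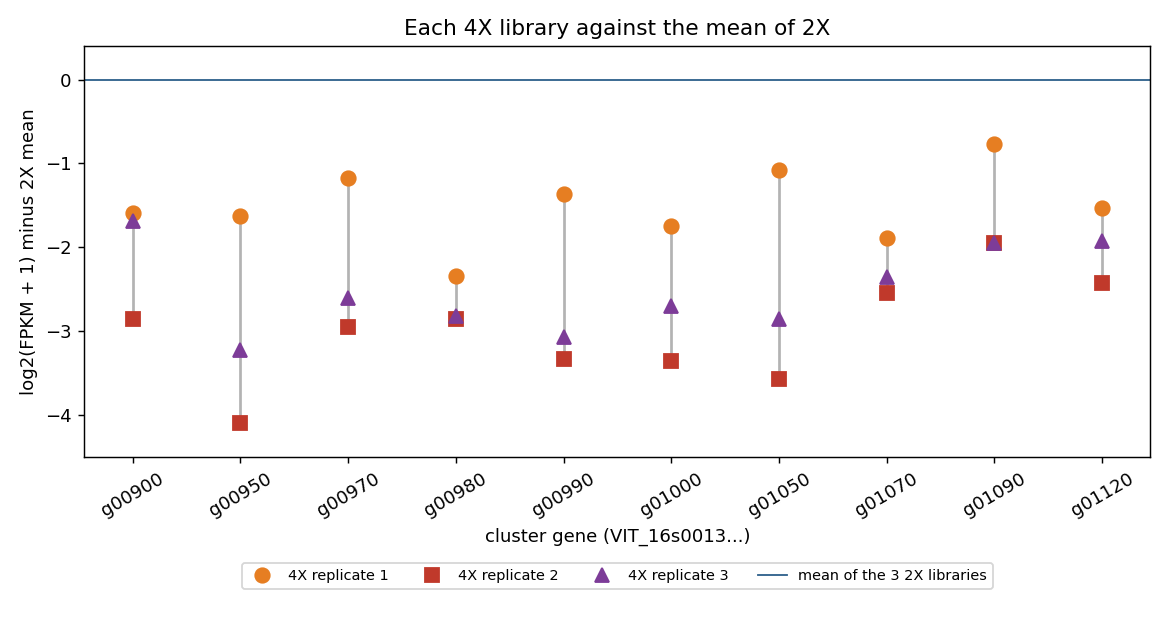
Difference of log2(FPKM + 1) of each 4X library from the mean of the 2X libraries (blue line at 0) for the 10 cluster genes in identifier order, with 4X replicates 1, 2 and 3 as circles, squares and triangles joined by a grey line. All points lie below 0, between -4.08 and -0.76, and the circle is on top in every gene, with the widest gap to the other libraries in VIT_16s0013g01050 and VIT_16s0013g00950.

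How far 4X replicate 1 departed from the others differed between copies. In VIT_16s0013g00900, VIT_16s0013g00980, VIT_16s0013g01070 and VIT_16s0013g01120 its FPKM was 1.58 to 1.73 times the mean of 4X replicates 2 and 3. In VIT_16s0013g00950, VIT_16s0013g00970, VIT_16s0013g00990, VIT_16s0013g01000 and VIT_16s0013g01050 it was 2.88 to 5.51 times that mean, and in the low copy VIT_16s0013g01090 it was 13.3 times. No cluster gene lay between 1.73 and 2.88. The place of 4X replicate 1 was also expressed on the log2 scale, with 0 at the 2X mean and 1 at the mean of 4X replicates 2 and 3. It ranged from 0.337 in VIT_16s0013g01050 to 0.825 in VIT_16s0013g00980, with a median of 0.511. Outside the cluster, 289 genes tested were at least 1 log2 unit below the 2X mean in both 4X replicates 2 and 3. Their median place was 0.105 (quartiles, -0.152 to 0.366), so 4X replicate 1 was near 2X in many of them. The cluster genes were chosen in another way, so the difference in place was not tested.

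How closely the copies moved together was described by the distance between their patterns. For each gene the log2(FPKM + 1) values were centred on their mean, and the root mean square difference between genes was taken over the 6 libraries, where 0 means the same pattern. Over the 45 pairs of cluster genes it had a median of 0.43 log2 units and ranged from 0.18 to 0.81, while the mean pattern of the cluster itself varied by 1.25 units. That variation is mainly the difference between 4X and 2X by which the genes were chosen, so the patterns had to be alike in this respect. Centred within each ploidy instead, the pairs had a median distance of 0.40 in 4X, where the mean pattern varied by 0.62, and of 0.17 in 2X, where it varied by 0.054. The nearest pair was VIT_16s0013g01070 with VIT_16s0013g01120, followed by VIT_16s0013g00970 with VIT_16s0013g00990 at 0.19. The farthest pair was VIT_16s0013g00950 with VIT_16s0013g01090. VIT_16s0013g00970 was nearest to the mean pattern, at 0.14 log2 units, and VIT_16s0013g00950 farthest, at 0.43 log2 units. The copies thus shared the order of the libraries within 4X, and within 2X they shared none. The highest 2X value lay in replicate 1 for 5 genes, in replicate 2 for 3 and in replicate 3 for 2, and VIT_16s0013g00980 was lowest in 2X replicate 1, where VIT_16s0013g00970, VIT_16s0013g00990 and VIT_16s0013g01000 were highest.

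The order of the copies by mean FPKM was largely kept between ploidies. By their means VIT_16s0013g01120 and VIT_16s0013g00950 took the first and second places in 4X, and the reverse in 2X. In 4X the mean of VIT_16s0013g01120 was 11.3 ± 3.68 FPKM and that of VIT_16s0013g00950 was 9.70 ± 9.24 FPKM (SD, n = 3), and they did not differ beyond their spread. In 2X these means were 45.98 ± 7.61 FPKM for VIT_16s0013g01120 and 64.5 ± 2.80 FPKM for VIT_16s0013g00950 (SD, n = 3), and the libraries of the genes did not overlap. By their means VIT_16s0013g00990 and VIT_16s0013g01050 held the third and the fourth place in both ploidies, and VIT_16s0013g01090 the last. The order differed between single 4X libraries. VIT_16s0013g01050 was in place 4 in 4X replicate 1 and in place 6 in 4X replicates 2 and 3. VIT_16s0013g00900 was in places 5, 4 and 2 in 4X replicates 1, 2 and 3. VIT_16s0013g00980 averaged 1.80 ± 0.585 FPKM in 4X, against 17.1 ± 5.10 FPKM in 2X, and overlapped VIT_16s0013g00970 in both ploidies, which averaged 3.37 ± 3.04 FPKM in 4X, against 16.8 ± 1.38 FPKM in 2X (SD, n = 3 each).

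The make-up of the summed FPKM moved most at these leading copies. VIT_16s0013g01120 contributed 16.1%, 31.8% and 27.6% of the sum in 4X replicates 1, 2 and 3, against 15.2%, 18.5% and 14.4% in 2X. VIT_16s0013g00950 contributed 21.7%, 11.8% and 14.8% in 4X, against 21.7%, 21.2% and 24.8% in 2X. 4X replicate 1 thus lay within the range of 2X for both copies although its sum was 32.6% of the 2X mean, and 4X replicates 2 and 3 lay outside that range. For most of the other copies, however, 4X replicate 1 lay outside the range of 2X. Its share was 15.0% for VIT_16s0013g01050, against 10.2% to 11.5% in 2X. For VIT_16s0013g00980 it was 2.65%, against 3.91% to 7.79% in 2X. VIT_16s0013g00900 had its largest share, 17.8%, in 4X replicate 3, against 7.47% to 10.1% in 2X.

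**Figure D3:**
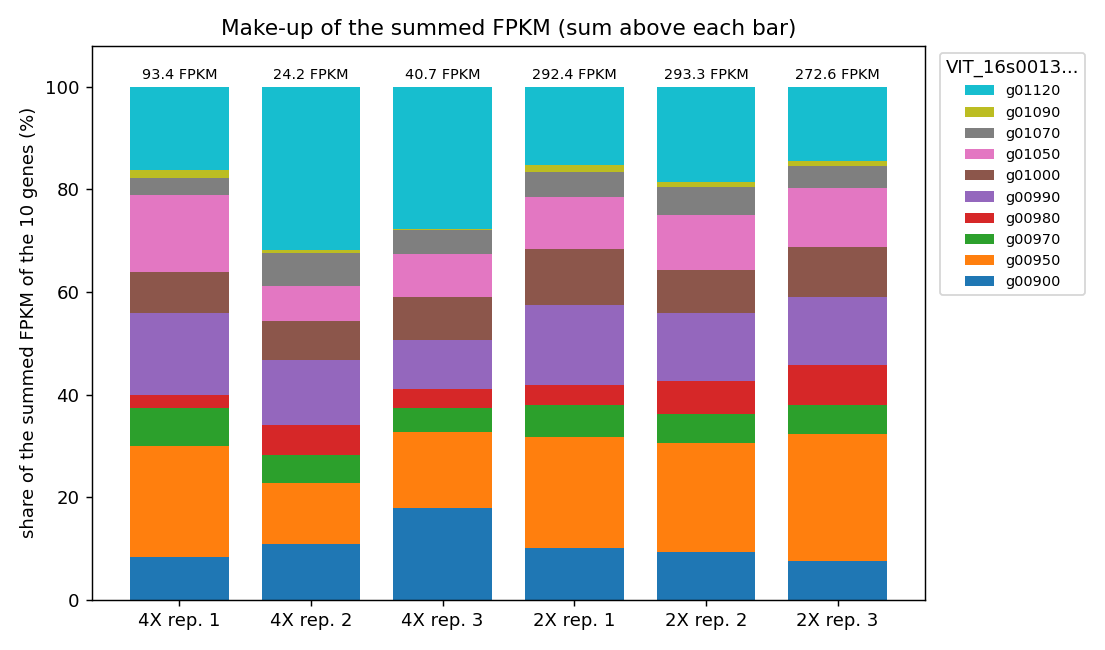
Share in percent of each cluster gene in the summed FPKM of the 10 genes, with 1 stacked bar for each library (4X on the left, 2X on the right) and the sum in FPKM above the bar. The sums are 93.4, 24.2 and 40.7 FPKM in 4X, and the top segment, VIT_16s0013g01120, widens to 31.8% in 4X replicate 2, against 15.2% in 2X replicate 1.

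The genes between and beside the copies were examined for the same pattern where their level allowed it. The table lists 20 other genes with identifiers from VIT_16s0013g00850 to VIT_16s0013g01170. Of these, 11 were listed at 0 in all libraries, 3 did not exceed 0.360 FPKM in any library, and 6 were tested. None of the 6 was called by limma with all libraries, where 0.0883% of all genes tested were called in either direction. An unadjusted p under 0.05 was found for 1 of them, as for 14.3% of all genes tested, and that gene was VIT_16s0013g01080. It lies between VIT_16s0013g01070 and VIT_16s0013g01090 and had 5.77, 1.45 and 1.85 FPKM in 4X, against 9.30, 7.13 and 6.89 FPKM in 2X. Its libraries did not overlap between ploidies and had the same order within 4X as the cluster genes. For this gene limma gave a log2 fold change of -1.27 (SE 0.38) with an adjusted p = 0.223. Without 4X replicate 1, in which it kept 74.2% of the 2X mean, it was -1.72 (adjusted p = 0.00892 from limma), in a fit that called 3.14% of all genes tested lower. The table gives no description of this gene, and it is the neighbour outside the list whose values came nearest to those of the cluster.

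The other 5 tested neighbours overlapped between the ploidies. VIT_16s0013g00940, which directly precedes VIT_16s0013g00950, had 4.75, 7.08 and 6.09 FPKM in 4X and 5.93, 6.15 and 4.797 FPKM in 2X (log2 fold change 0.07, SE 0.17, adjusted p = 0.905 from limma). VIT_16s0013g01140, beyond the last copy, had 14.7, 12.9 and 12.0 FPKM in 4X and 13.7, 13.5 and 12.5 FPKM in 2X (log2 fold change -0.01, SE 0.11, adjusted p = 0.982 from limma). VIT_16s0013g00860 had 28.4, 33.9 and 30.3 FPKM in 4X and 31.5, 32.2 and 27.3 FPKM in 2X (log2 fold change 0.02, SE 0.11). These genes showed neither the distance from 2X nor the order of the 4X libraries seen in the cluster. VIT_16s0013g00890 had 5.60, 0.970 and 2.09 FPKM in 4X and 2.08, 2.55 and 5.13 FPKM in 2X, so that it shared the order of the 4X libraries but not the distance from 2X (log2 fold change -0.25, SE 0.47). VIT_16s0013g00930 behaved alike at a low level, with 2.31, 0.833 and 0.870 FPKM in 4X and 1.47, 1.05 and 0.427 FPKM in 2X (log2 fold change 0.22, SE 0.32).

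**Figure D4:**
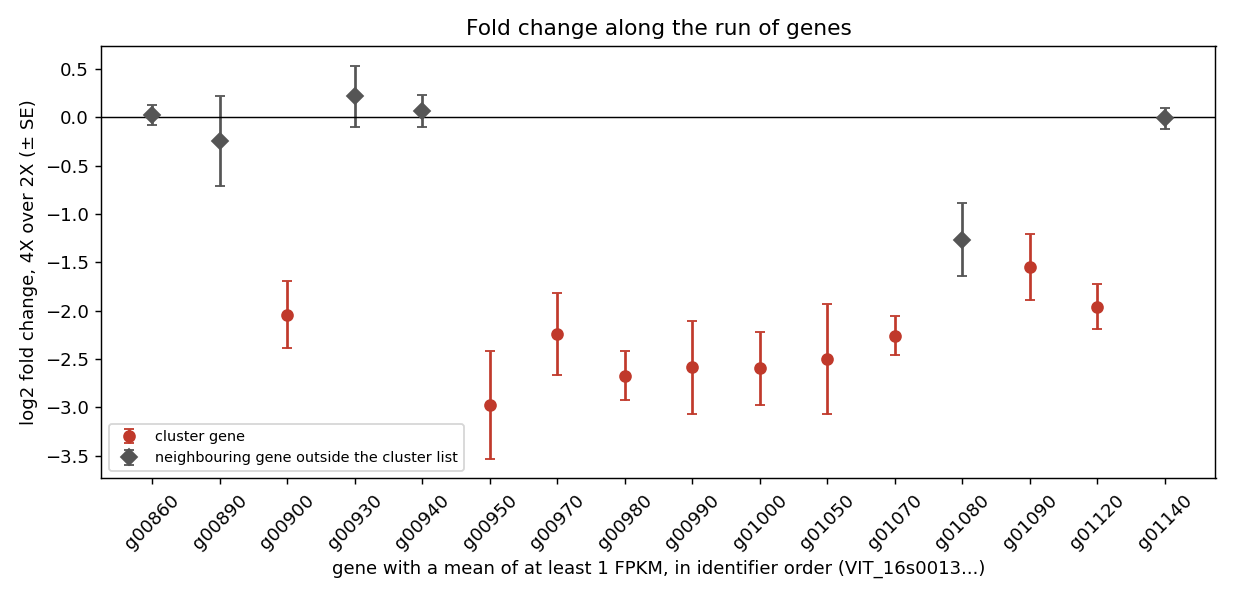
Log2 fold change of 4X over 2X on the scale of log2(FPKM + 1) with its SE for the 10 cluster genes (red circles) and the 6 tested neighbours (grey diamonds), in identifier order and not to scale by distance. The cluster genes lie between -2.98 and -1.55, VIT_16s0013g01080 lies at -1.27, and the other neighbours lie between -0.25 and 0.22.

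From VIT_16s0013g00950 to VIT_16s0013g01120 there were 10 tested genes in a row, 9 of the cluster and VIT_16s0013g01080, with every 4X library below every 2X library. Over the whole table, with genes ordered by identifier within each block, 2 such runs of at least 4 tested genes occurred. The cluster genes were chosen for lower values in 4X, so the length of their run is a description and carries no support of its own. The other, VIT_05s0020g02670 to VIT_05s0020g02700 on chromosome 5, held 4 genes, and their log2 fold changes had a median of -0.34. VIT_16s0013g00900 lies outside the run, since VIT_16s0013g00930 and VIT_16s0013g00940 separate it from the other copies.

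Outside the cluster, 15 genes were as near to the mean pattern of the cluster over the 6 libraries as its farthest member. The 5 nearest by the root mean square difference were VIT_13s0064g01720 at 0.26, VIT_07s0031g00530 at 0.31, VIT_16s0098g01000 at 0.32, VIT_03s0091g01080 at 0.33 and VIT_14s0108g01000 at 0.33 log2 units. VIT_13s0064g01720 had 5.06, 1.28 and 1.54 FPKM in 4X and 11.4, 10.5 and 10.7 FPKM in 2X. VIT_07s0031g00530, the most expressed of them, had 38.1, 6.003 and 11.2 FPKM in 4X and 62.8, 71.5 and 68.9 FPKM in 2X. These genes, too, had 4X replicate 1 between the other 4X libraries and 2X. They were picked for their likeness, so their decrease is not tested, and with a pseudocount of 0.1 the list of 5 shared 3 genes with this list. By the same measure VIT_16s0013g01080 was at 0.55, in place 37 among the genes outside the cluster.

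Of the 4 AP2/ERF genes elsewhere in the genome that could be named, 3 had higher means in 4X. The other had a lower mean, as the cluster genes had. The study chose the 3 higher genes on these samples, so their direction is not independent evidence. The study's primer table names ERFB-4 (VIT_07s0031g01980), ERFA-5 (VIT_18s0001g10150) and ERFB-6 (VIT_09s0002g09140), and a related cytokinin response factor, CRF (VIT_16s0050g02400). ERFB-6 had 3.56, 6.25 and 10.6 FPKM in 4X and 1.22, 0.861 and 2.74 FPKM in 2X, with no overlap (log2 fold change 1.54, SE 0.39, adjusted p = 0.184 from limma). ERFA-5 had 4.54, 1.55 and 3.67 FPKM in 4X and 1.12, 1.94 and 1.28 FPKM in 2X, and the groups overlapped (log2 fold change 0.74, SE 0.31, adjusted p = 0.351 from limma). ERFB-4 had 1.26, 0.896 and 2.39 FPKM in 4X and 0.359, 0.454 and 0.593 FPKM in 2X, and its mean was below the limit for testing. CRF was lower in 4X, with 9.78, 3.29 and 4.65 FPKM against 11.02, 12.0 and 14.3 FPKM in 2X (log2 fold change -1.06, SE 0.33, adjusted p = 0.231 from limma), and its libraries did not overlap between ploidies. CRF and ERFA-5 had the order of the 4X libraries seen in the cluster, and ERFB-4 and ERFB-6 did not. None of the 3 genes tested was called with all libraries in limma, where 0.0883% of all genes tested were, and 2 had an unadjusted p under 0.05, as 14.3% of all genes tested had. Without 4X replicate 1, CRF was called lower (adjusted p = 0.0141 from limma), as were 3.14% of all genes tested, and ERFB-6 higher (adjusted p = 0.0453 from limma), as were 1.02%.

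All 10 genes of ethylene synthesis and response in the primer table had higher means in 4X. They are ACO1, which makes ethylene, the 3 ERF genes above, the lipases GLIP1 and GLIP2, the basic chitinase HCHIB, the pathogenesis-related proteins PR-4 and PR-4B, and the catalase cat2. The study chose them on these samples, so this direction is not independent evidence. In 5 of the 8 genes tested the lowest 4X library exceeded the highest 2X library, as in 11.2% of all genes tested. The median log2 fold change of the 8 was 1.34. None was called by limma with all libraries, against 0.0883% of all genes tested, and 6 had an unadjusted p under 0.05, against 14.3%. The study tested reads in Cufflinks, not FPKM in limma, and reported ACO1 and ethylene response genes as increased in 4X. It also reported increases of 3 ERF genes and PR-4B in 4X tissue culture plantlets, which were not analysed here. ACO1 (VIT_11s0016g02380) had 9.71, 6.96 and 13.9 FPKM in 4X and 0.807, 1.65 and 1.43 FPKM in 2X (log2 fold change 2.26, SE 0.26, adjusted p = 0.0573 from limma). PR-4 (VIT_14s0081g00030), the most expressed, had 229.6, 145 and 176 FPKM in 4X and 60.3, 104 and 70.6 FPKM in 2X (log2 fold change 1.23, SE 0.24, adjusted p = 0.124 from limma). HCHIB (VIT_03s0038g03400) had a log2 fold change of 1.45 and cat2 (VIT_18s0122g01320) had one of 0.63. PR-4B (VIT_14s0081g00020) had 9.41, 7.28 and 5.61 FPKM in 4X and 3.08 and 4.78 FPKM in 2X replicates 1 and 2, and it was listed at 0 in 2X replicate 3. Its log2 fold change was 1.53, and 0.77 without 2X replicate 3. GLIP2 (VIT_09s0002g00570) had a log2 fold change of 0.39 that rested on 4X replicate 1 and was -0.12 without it. GLIP1 (VIT_09s0002g00540) was below the limit for testing. Without 4X replicate 1, ACO1 (adjusted p = 0.0190 from limma) and ERFB-6 were called higher, where 1.02% of all genes tested were. In ACO1 4X replicate 1 stood at 0.929 times the mean of 4X replicates 2 and 3 and lay between them. In each of the 10 cluster genes it lay above both. It also lay above both in ERFA-5, GLIP2, HCHIB, PR-4 and PR-4B. GLIP2 had 64.8 FPKM in 4X replicate 1, against 20.5 and 23.2 FPKM, and HCHIB had 79.2 FPKM, against 29.2 and 67.2 FPKM. In ERFB-4 and cat2 4X replicate 1 lay between the others, and in ERFB-6 and GLIP1 below both.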

How the data were processed

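Reads were quality-trimmed by the authors (FASTX-Toolkit), mapped to the Ensembl Plants grapevine genome (TopHat2 2.0.14, which calls Bowtie2) and compared between ploidies (Cufflinks 2.2.1). The authors deposited FPKM per gene and library. The genome build, scaling between libraries, strand and multiple mapping are not given in the sources used here. The table's 0 further columns of values were left out.

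The 18119 genes that averaged 1 FPKM or more over all libraries entered a limma fit (version 3.58.1, R 4.3.3) of log2(FPKM + 1) on ploidy, with a variance trend and two-sided tests, since FPKM are not counts. Benjamini-Hochberg adjustment ran over all of these genes. The threshold was 0.05. Nothing says that libraries with the same number belong together, and the vines behind each pool are not named. Summaries used Python 3.11.15, pandas 2.3.3 and numpy 2.4.6, and plots matplotlib 3.10.9. The method was tested on simulated data.

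The members and lists were chosen with earlier results of these data known. Named are the 10 members, the tested neighbours, the ethylene list and the 5 genes nearest in pattern. The planned list of AP2/ERF genes by description fell back to the primer table, and a list of early stress-response genes was not run, because the reference table holds 0 of the identifiers. Coordinates and sequences are not given for the same reason. Alternatives were a pseudocount of 0.1, other filters and scalings, no trend, a replicate block and leaving out each library.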

Additional observations from a re-analysis of the deposited data

How the results depend on the processing

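The 10 cluster genes were chosen for their direction, and most alternatives cannot change which libraries lie below which, so the count of 10 genes with every 4X library below every 2X library under each of them shows no stability. The median log2 fold change ranged from -2.81 to -2.05 with single libraries left out and was -2.80 with a pseudocount of 0.1, which moved VIT_16s0013g00980 to -3.17, VIT_16s0013g01070 to -2.68 and VIT_16s0013g01090 to -3.01. The calls depended on the fit. With no filter on low values and with the replicate number as a block, 0 genes were called in either direction, so the 11 higher, the 5 lower and the 2 cluster genes were all lost, while 3142 genes (13.5%) and 2290 genes (12.6%), all 10 cluster genes among them, had an unadjusted p under 0.05 in limma. Leaving out single libraries gave 0 to 185 genes called higher, 0 to 569 lower, 0 to 10 cluster genes, 0 to 1 neighbour, 0 to 2 of the ethylene list and 0 to 2 of the other AP2/ERF genes. The upper value came from leaving out 4X replicate 1. Same-numbered libraries of 4X and 2X did not deviate together (correlations of -0.00765, -0.0515 and 0.0869 across genes), so the block adds no pairing that the design states. Signs near 0 turned with single libraries left out, over -0.048 to 0.081 for VIT_16s0013g00860, -0.72 to 0.15 for VIT_16s0013g00890, -0.062 to 0.39 for VIT_16s0013g00930, -0.047 to 0.20 for VIT_16s0013g00940, -0.088 to 0.051 for VIT_16s0013g01140 and -0.12 to 0.69 for VIT_09s0002g00570. Median scaling and quantile normalization gave the cluster a median of -2.39 and -2.41. With 3 libraries per ploidy an exact permutation test of 1 gene cannot go below p = 0.1.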
